A study of Mus musculus with 4 samples.

Results

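The members described here were the endogenous small RNA control probes of a microRNA (miRNA) array, chosen by probe name alone. A probe was taken where its name starts with SNOR (small nucleolar RNA, snoRNA), RNU or U6B (small nuclear RNA, snRNA) or 5S (5S ribosomal RNA), which gave 24 of the 2660 probe identifiers on the array. They comprised 17 box C/D snoRNA probes (SNORD), 1 box H/ACA snoRNA probe (SNORA66), 3 probes for U6 snRNA, 1 each for U1 and U5 snRNA, and 1 for 5S rRNA. Each was printed as 4 spots, 96 of 12312 spots in all. They were set against 51 spike-in probes of the same array, which read synthetic RNA added by the experimenter and not made by the cells.

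The RNA came from primary cortical neurons of Swiss albino mouse embryos (E15), harvested untreated on Days 2, 4, 6 and 8 of culture. For each day total RNA of 4 separate experiments was pooled, and 1 µg of the pool, carrying Hy3 as its one dye, was put on 1 array of LNA probes, 4 arrays in all. The spread between cultures therefore cannot be measured, the days cannot be tested against each other, and every ± below is the SD between the 4 spots of a probe, a technical error. The neuronal miRNAs miR-124 and miR-9 were saturated on all 4 arrays, whereas miR-143, used for astrocytes, read 5.12, 7.95, 29.5 and 25.8 units on Days 2, 4, 6 and 8. Of the myeloid markers, miR-223 read -35.6, 17.8, 28.0 and 16.1 units and miR-142-3p read 471, 342, 132 and 82.9 units on the same days.

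Box C/D snoRNAs guide ribose methylation, and box H/ACA snoRNAs guide pseudouridylation, mostly of ribosomal RNA; a few, such as U3, act in the cleavage of its precursor instead. Most vertebrate snoRNAs are excised from introns of other genes. U1, U5 and U6 are RNAs of the spliceosome, which removes introns from pre-mRNA, and 5S rRNA is part of the large ribosomal subunit. U6 and 5S are made by RNA polymerase III. Such abundant RNAs are commonly used as an internal scale for miRNAs on the assumption that their level is constant, and the study's methods scaled miRNAs on a group of endogenous controls.

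In these data the controls were not level with the spike-ins across the 4 days. All 15 controls that were bright enough on every array had their lowest signal on Day 6, and 11 of the 15 had their highest on Day 2. Of the 33 spike-ins, 29 had their lowest background-subtracted signal on Day 2 and 32 their highest on Day 4. After the normexp background correction used for the log2 values below, all 15 controls were again lowest on Day 6, whereas 20 spike-ins were lowest on Day 8, 9 on Day 2 and 4 on Day 6, so that the spike-ins' lowest day depended on the correction. The 3 U6 probes were low on Days 4 and 6 and rebounded on Day 8, most box C/D snoRNAs were low on Days 6 and 8, and U3 (SNORD3@) was highest on Day 8. Of 410 detected mouse miRNAs that were not saturated, 319 (77.8%) were also lowest on Day 6, and on each later day the median control lay nearer to the median miRNA than to the median spike-in.

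Signals are given as scanner intensity units, the mean foreground minus the local background, averaged over spots. A probe was called detected at 300 units, the threshold of the study's methods. By this measure 17 of 24 controls (70.8%) were detected on at least 1 array, beside 419 of 1030 mouse miRNA probes (40.7%). On all 4 arrays, 15 controls reached 300 units, and these formed the scaling set used below: 9 box C/D snoRNAs, the 3 U6 probes, U1, U5 and 5S. None of the 24 had saturated pixels. SNORD6 was the dimmest inside the set, with 539 units on its lowest day, and SNORD48 the brightest outside it, with 215 units on its lowest day. As a measure of zero, the brightest of 7 negative control probes read 139, 123, 93.9 and 117 units on Days 2, 4, 6 and 8. Overlap of spots between days is given below for controls only. In background-subtracted signal the spots of 11, 0 and 3 of 15 controls overlapped those of Day 2 on Days 4, 6 and 8. The same share of miRNAs or spike-ins was not counted, so that overlap or its absence describes the spots alone.

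Among the spliceosomal RNAs, RNU6-1, a probe for U6, had 6187 ± 316, 3348 ± 130, 3024 ± 101 and 4644 ± 85.8 units on Days 2, 4, 6 and 8. U6B, a second U6 probe, had 4355 ± 142, 2555 ± 74.7, 2079 ± 104 and 3364 ± 83.2 units. RNU6-1_RNU6-2, the third and brightest, had 34557 ± 2038, 22154 ± 650, 21307 ± 587 and 33712 ± 1795 units. All 3 were high on Day 2, low on Days 4 and 6 with spots that did not overlap those of Day 2, and higher again on Day 8, where only RNU6-1_RNU6-2 overlapped its Day 2 spots. The 3 probes read the same RNA and share their source, so that they are not 3 independent controls.

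On the log2 scale after normexp background correction (offset 50), with no scaling between arrays, RNU6-1 differed from Day 2 by -0.90, -1.06 and -0.45 on Days 4, 6 and 8. U6B differed by -0.79, -1.10 and -0.42, and RNU6-1_RNU6-2 by -0.64, -0.70 and -0.04. The 2 dimmer probes thus stayed below Day 2 on Day 8 while the brightest was back at its Day 2 signal. Against Day 6, which leaves Day 2 out, the 3 U6 probes were higher on Day 8 by 0.61 to 0.67.

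RNU1, for U1, the RNA that pairs with the 5′ splice site, had 10970 ± 751, 9932 ± 254, 7738 ± 257 and 10190 ± 214 units on Days 2, 4, 6 and 8. RNU5, for U5, which holds the exons during splicing, had 13622 ± 2651, 12005 ± 181, 9194 ± 193 and 10944 ± 344 units; its wide spread on Day 2 came with spots between 12112 and 17590 units. Both were lowest on Day 6, where they differed from Day 2 by -0.52 and -0.57 on the log2 scale, and on Day 8 the U1 spots again overlapped those of Day 2. Set over U5 on the same array, the RNU6-1 signal was 0.61, 0.72 and 0.93 times its Day 2 ratio on Days 4, 6 and 8, and the U6B signal 0.67, 0.71 and 0.96 times. For RNU6-1_RNU6-2 the same ratio was 0.73, 0.91 and 1.21 times that of Day 2, and for U1 it was 1.03, 1.05 and 1.16 times. All 3 U6 probes were thus below their Day 2 ratio to U5 on Days 4 and 6, but on Day 8 the brightest was above it. Such a ratio shows unequal change and not which of the pair changed.

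5S_rRNA, the ribosomal member, had 26951 ± 871, 25974 ± 650, 19281 ± 755 and 22069 ± 720 units on Days 2, 4, 6 and 8. Its Day 4 spots overlapped those of Day 2, and those of Days 6 and 8 lay below them. The differences from Day 2 were -0.06, -0.49 and -0.30 on the log2 scale, the smallest of the set on Day 6 after that of SNORD3@.

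For most box C/D snoRNAs the unscaled course differed from that of U6, and most were low on both later days. In background-subtracted signal the spots of 8 of the 9 in the set overlapped between Days 4 and 2, all but SNORD2. After normexp the Day 4 spots of SNORD13, SNORD68 and SNORD6 lay apart from those of Day 2 as well, so that this overlap depended on the correction. SNORD2, hosted by the translation initiation factor gene Eif4a2 per the RefSeq gene table, had 40980 ± 1963, 35731 ± 584, 23312 ± 1246 and 25626 ± 258 units on Days 2, 4, 6 and 8. SNORD38B had 7438 ± 519, 6789 ± 438, 3760 ± 112 and 4020 ± 229 units. Both were high on Days 2 and 4 and low on Days 6 and 8, with no overlap between the spots of Days 6 or 8 and those of Day 2. SNORD2 was the one snoRNA of the set whose Day 4 spots, from 34982 to 36404 units, also lay below its Day 2 spots, from 38402 to 42546 units. SNORD38B differed from Day 2 by -0.16, -1.003 and -0.91 on the log2 scale, and SNORD2 by -0.20, -0.82 and -0.68.

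SNORD13 (U13), which guides acetylation of small-subunit rRNA in human cells, followed the same course, with 2708 ± 236, 2450 ± 117.5, 1500 ± 83.8 and 1614 ± 43.7 units on Days 2, 4, 6 and 8. SNORD68, hosted by the ribosomal protein gene Rpl13, had 1484.5 ± 125, 1352 ± 55.4, 809.7 ± 49.2 and 969.5 ± 32.3 units. SNORD65, hosted by the noncoding gene 2410006H16Rik, had 10538 ± 621, 9929 ± 262, 6764 ± 256 and 7677 ± 192 units. For these 3, Day 4 overlapped Day 2 in background-subtracted signal, and Days 6 and 8 lay below it. SNORD110, hosted by Nop56, itself a protein of the box C/D particle, had 1043 ± 49.1, 1155 ± 68.7, 657 ± 44.1 and 755 ± 46.1 units. SNORD12, hosted by the noncoding gene Zfas1, had 1747 ± 139, 1766 ± 71.2, 1000.4 ± 85.1 and 1352 ± 74.8 units, and was thus higher on Day 8 than on Day 6 without its spots reaching those of Day 2. SNORD6 had 812 ± 90.0, 839 ± 22.1, 539 ± 81.5 and 742 ± 58.6 units, low on Day 6 alone.

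SNORD3@ (U3), required for the first cleavages of the rRNA precursor, was the exception among the snoRNAs. It had 4478 ± 436, 4638 ± 184, 3587 ± 130 and 6183 ± 93.1 units on Days 2, 4, 6 and 8. Its Day 8 spots, from 6102 to 6314 units, lay above all its Day 2 spots, from 4146 to 5117 units, the only control with this order. The log2 differences from Day 2 were 0.00, -0.37 and 0.40. Over SNORD2 on the same array, SNORD3@ stood at 1.19, 1.41 and 2.21 times its Day 2 ratio on Days 4, 6 and 8, and over SNORD13 at 1.14, 1.45 and 2.32 times. Copies of U3 are near identical, and whether the probe tells them apart was not checked, as no probe sequence was available.

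A list for pre-rRNA processing, chosen with earlier results of these data known, held U3, U13, U14 and U8. It counts U13 although its role named above is acetylation. Of these 4 probes, 2 were in the scaling set. They moved apart on Day 8, SNORD3@ by 0.40 and SNORD13 by -0.81 from Day 2. The other members were too dim for a course to be read. SNORD48 had 354 ± 15.3, 384 ± 10.9, 215 ± 21.8 and 271 ± 34.2 units and SNORD10 had 304 ± 16.4, 311 ± 27.4, 174 ± 24.6 and 204 ± 26.7 units on Days 2, 4, 6 and 8, so that both reached 300 units on Days 2 and 4 only. SNORD44, whose known host is the growth arrest gene Gas5, was highest on Day 4 with 264 units, SNORD14B (U14) on Day 2 with 221 units and SNORD15A on Day 2 with 116 units. SNORA66, SNORD118 (U8), SNORD49A and SNORD4A had at least 1 spot that the scanner software did not find on every array. SNORA66 averaged 179 ± 265 units on Day 2, an average set by the spread between spots. Among the snoRNA probes, 10 of 18 names matched a mouse gene symbol and 8 a host gene. In the scaling set SNORD3@, SNORD38B and SNORD6 matched none, and whether their probes fit the mouse RNA was not checked. SNORD65 and SNORD49A share the host 2410006H16Rik, but SNORD49A read -77.6, -5.35, 11.4 and 1.29 units on Days 2, 4, 6 and 8, never above the brightest negative control.

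Over the whole scaling set, the median log2 difference from Day 2 was -0.18, -0.82 and -0.45 on Days 4, 6 and 8. After normexp the controls were below their Day 2 value in 14, 15 and 14 of 15 cases, beside 275, 384 and 296 of the 419 detected miRNAs. After subtraction 11, 15 and 14 controls were below it, beside 112, 348 and 195 miRNAs. The number of controls below Day 2 on Day 4 thus depended on the correction. The study's methods called a miRNA changed at a difference past 0.6. After normexp this was reached downward by 3, 11 and 5 of 15 controls on Days 4, 6 and 8. The shares of the 419 detected miRNAs past it downward were 4.30% on Day 4, 56.8% on Day 6 and 19.3% on Day 8. The 3 controls of Day 4 were the 3 U6 probes, and the 5 of Day 8 were SNORD38B, SNORD13, SNORD68, SNORD2 and SNORD110. After normexp the controls' shares were 20%, 73.3% and 33.3% on Days 4, 6 and 8, each above that of the miRNAs. After subtraction 3, 10 and 4 controls were past 0.6 downward on Days 4, 6 and 8, beside 7, 103 and 49 of the 419 miRNAs. The controls' share was again above that of the miRNAs on each day. The miRNA count on Day 6 depended on the correction, being 238 of 419 after normexp.

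The 33 spike-ins that passed the same brightness rule gave an external scale. Their signals ran from 312 to 6290 units with a median of 795 on Day 2, and had medians of 1381, 1141 and 1017 units on Days 4, 6 and 8. Most were dimmer than the controls, which matters for the background correction. For spots near 300, 1000 and 10000 units alike, normexp added 285 units on Day 2, 121 on Day 4, 88.9 on Day 6 and 92.0 on Day 8, an unequal amount that lowers every difference from Day 2 of a dim probe. After normexp the spike-ins of 300 to 1000 units differed from Day 2 by a median of 0.11, -0.21 and -0.28 on Days 4, 6 and 8, and those of 1000 to 5000 units by 0.42, 0.04 and -0.01. After plain subtraction of the background (floor 50 units) the same classes had medians of 0.63, 0.36 and 0.18, and of 0.57, 0.30 and 0.18. Values relative to the spike-ins are therefore given with both corrections.

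Relative to the median spike-in, the median control differed from Day 2 by -0.43, -0.80 and -0.28 on Days 4, 6 and 8 after normexp, and by -0.71, -1.04 and -0.55 after subtraction. The direction was the same and the size larger by subtraction. All 3 spike-in medians were above Day 2 after subtraction, by 0.57, 0.35 and 0.18, whereas after normexp they were 0.25, -0.02 and -0.17.

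Past 0.6 downward relative to the spike-ins were 3, 11 and 2 of 15 controls on Days 4, 6 and 8 after normexp, beside 15.0%, 54.4% and 11.9% of detected miRNAs. After subtraction these counts were 11, 15 and 6 controls, beside 22.4% of miRNAs on Day 4, 69.7% on Day 6 and 16.7% on Day 8. None was past 0.6 upward with either correction, but 1 control was on Day 8 when the median foreground, the median of spots or all spike-ins were used after normexp. The controls' share was near that of the miRNAs on Days 4 and 8 after normexp, and above it on Day 6 after normexp and on all 3 days after subtraction.

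The member nearest to the spike-ins over the 4 days was 5S_rRNA, with an SD over arrays of 0.21 on the log2 scale relative to the median spike-in, followed by RNU5 with 0.25 and SNORD65 with 0.26. The farthest were RNU6-1 with 0.57, U6B with 0.55 and RNU6-1_RNU6-2 with 0.50. Subtraction gave 0.35 for 5S_rRNA, 0.39 for RNU5 and 0.41 for SNORD65, and 0.69 for RNU6-1, 0.68 for U6B and 0.60 for RNU6-1_RNU6-2. 5S_rRNA was still lowest and the U6 probes still highest of the 15, but RNU1 (0.39) and SNORD6 (0.40) then also lay below SNORD65. Relative to the spike-ins, 5S_rRNA differed from Day 2 by -0.31, -0.47 and -0.13 on Days 4, 6 and 8 after normexp and by -0.63, -0.83 and -0.47 after subtraction. RNU5 differed by -0.43, -0.55 and -0.14 after normexp and by -0.74, -0.89 and -0.48 after subtraction. For SNORD65 the differences were -0.36, -0.64 and -0.31 after normexp and -0.66, -0.98 and -0.63 after subtraction. These 3 were thus below Day 2 on every later day, least so on Day 8. RNU6-1 differed by -1.15, -1.04 and -0.28 after normexp and by -1.46, -1.38 and -0.59 after subtraction. U6B differed by -1.05, -1.08 and -0.25 after normexp and by -1.34, -1.41 and -0.55 after subtraction, and RNU6-1_RNU6-2 by -0.90, -0.68 and 0.13 and by -1.21, -1.04 and -0.21. The U6 signal on Day 4 by RNU6-1 was thus 0.45 times that on Day 2 after normexp and 0.36 times after subtraction.

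SNORD3@ was the one control above Day 2 relative to the spike-ins under both corrections on Day 8, by 0.57 after normexp and 0.29 after subtraction. RNU6-1_RNU6-2 and RNU1 were above by 0.13 and 0.04 after normexp, but differed by -0.21 and -0.28 after subtraction, so that their direction on Day 8 depended on the correction. Every control was below Day 2 relative to the spike-ins on Days 4 and 6 with both corrections. For the 9 box C/D snoRNAs as a group, the medians relative to the spike-ins were -0.41, -0.81 and -0.48 after normexp and -0.66, -1.15 and -0.65 after subtraction.

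Against the miRNAs they would scale, the controls moved less. Relative to the median detected miRNA, the median control differed from Day 2 by -0.09, -0.17 and -0.20 on Days 4, 6 and 8 after normexp and by -0.29, -0.32 and -0.42 after subtraction. The median miRNA itself differed from Day 2 by -0.09, -0.65 and -0.25 unscaled after normexp, and by 0.16, -0.38 and 0.05 after subtraction. On this scale 2, 0 and 1 of 15 controls were past 0.6 downward on Days 4, 6 and 8 after normexp, beside 3.34%, 4.77% and 9.79% of the miRNAs. Those were RNU6-1 and U6B on Day 4 and SNORD38B on Day 8. Upward, the counts were 0, 0 and 1, the 1 being SNORD3@ on Day 8, beside 6.92%, 10.7% and 13.8%. After subtraction 3, 3 and 4 controls were past it downward, beside 3.10%, 5.49% and 12.9% of the miRNAs, and none upward, SNORD3@ standing at 0.42 on Day 8.

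By SD over arrays relative to the median miRNA, SNORD6 (0.07), RNU5 (0.08), 5S_rRNA (0.09), RNU1 (0.10) and SNORD65 (0.11) kept closest to the miRNAs, while the U6 probes lay between 0.31 and 0.35. After subtraction the same measure was 0.09 for SNORD6, 0.16 for RNU5, 0.15 for 5S_rRNA, 0.12 for RNU1 and 0.21 for SNORD65, and 0.36 to 0.43 for the U6 probes. Without any scaling the SDs after normexp were 0.23 for 5S_rRNA, 0.24 for RNU5, 0.31 for SNORD65, 0.38 for RNU6-1_RNU6-2, 0.47 for U6B and 0.48 for RNU6-1. Of the 419 miRNAs, 9 were saturated on at least 1 array, where a difference cannot be read.

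How far the members agreed among themselves bears on whether 1 of them can stand for all. With each set scaled on its own median, the median SD over the 4 arrays was 0.14 for the 15 controls, 0.10 for the 33 spike-ins and 0.18 for the 419 miRNAs. The mean SD of the log2 ratio of a probe to each of the others of its set, the pairwise spread, had medians of 0.23 for controls, 0.15 for spike-ins and 0.29 for miRNAs. Among controls it ran from 0.20 to 0.40, the highest being SNORD3@, and the next RNU6-1_RNU6-2 with 0.37. By both measures the controls lay between the spike-ins and the miRNAs. The order was the same after subtraction, with pairwise medians of 0.24, 0.13 and 0.33. The sets were not chosen alike, however. Controls and spike-ins had to reach the detection threshold on all 4 arrays, but miRNAs on only 1. Of the 419 miRNAs, 325 reached it on all 4 arrays. Whether the controls also spread less than those 325 was not tested. For comparison, the median SD between spots of a control's difference from Day 2 was 0.10.

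The number of miRNAs past 0.6 depended on the control chosen. Scaled on the median control, 35 miRNAs were higher and 8 lower on Day 4, 58 higher and 14 lower on Day 6, and 91 higher and 24 lower on Day 8, each against Day 2. Scaled on the median spike-in instead, 5 were higher and 63 lower on Day 4, 9 higher and 228 lower on Day 6, and 43 higher and 50 lower on Day 8. Calls were thus mostly upward on the endogenous scale, and mostly downward on the external scale on Days 4 and 6. With no scaling, 8 were higher and 238 lower on Day 6. After subtraction the median control gave 83, 92 and 157 higher and 3, 10 and 18 lower on Days 4, 6 and 8, and the median spike-in gave 10, 9 and 51 higher and 94, 292 and 70 lower.

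Scaling on 1 control at a time gave from 21 to 338 miRNAs higher on Day 4, from 22 to 130 on Day 6 and from 10 to 235 on Day 8. The numbers lower ran from 0 to 18, from 3 to 59 and from 8 to 228 on the same days. On RNU6-1 alone, 338 miRNAs were higher and 0 lower on Day 4, and 110 higher and 6 lower on Day 6. Unscaled, RNU6-1 was low on both days, but relative to the median miRNA it differed from Day 2 by -0.81 and -0.41. On SNORD3@ alone, 10 were higher and 228 lower on Day 8, and on SNORD38B alone 235 were higher and 8 lower. The direction of most calls on Day 8 thus turned with the control chosen. On 5S_rRNA alone, the counts were 25 higher and 14 lower on Day 4, 30 and 32 on Day 6, and 63 and 35 on Day 8. After subtraction the single controls gave from 48 to 392 miRNAs higher on Day 4, from 47 to 252 on Day 6 and from 32 to 313 on Day 8, and from 0 to 13, 4 to 34 and 8 to 141 lower. The counts on 5S_rRNA were then 77 higher and 5 lower on Day 4, 61 and 18 on Day 6, and 138 and 20 on Day 8, so that its near balance on Day 6 was not kept. On SNORD3@ they were 32 higher and 141 lower on Day 8, and on SNORD38B 313 higher and 8 lower.

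By class, scaling on the 9 box C/D snoRNAs put the median miRNA at 0.07, 0.19 and 0.40 above Day 2 on Days 4, 6 and 8, and scaling on the 3 U6 probes at 0.70, 0.41 and 0.17. Scaling on U1 and U5 put it at 0.08, -0.10 and -0.03. After subtraction these medians were 0.24, 0.42 and 0.52 on the box C/D snoRNAs, 0.93, 0.65 and 0.42 on U6, and 0.31, 0.15 and 0.25 on U1 and U5. Between the box C/D scale and the U6 scale after normexp, the call at 0.6 differed for 261 of 419 miRNAs (62.3%) on Day 4. It differed for 57 (13.6%) on Day 6 and for 58 (13.8%) on Day 8. The sign of the difference turned for 152, 65 and 66 miRNAs. After normexp the 2 classes of control thus gave unlike calls above all on Day 4. These shares were not counted after subtraction. On Day 6, 111 miRNAs were then higher on the box C/D scale and 237 on the U6 scale, beside 59 and 110 after normexp. How far the calls differed on Day 6 thus depended on the correction.

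A pair of contrasts leaves out Day 2, where the correction added most. On Day 8 against Day 6 all 15 controls were higher, by a median of 0.25 after normexp and 0.26 after subtraction. Most miRNAs were higher too, 397 of 419 after normexp and 394 after subtraction, with medians of 0.34 and 0.39. Of the spike-ins, 29 of 33 were lower after normexp, with a median of -0.14. On Day 8 against Day 4 the 9 box C/D snoRNAs had a median difference of -0.47 with 8 of 9 lower, the 3 U6 probes a median of 0.45 with all 3 higher, and the spike-ins a median of -0.41 with 33 of 33 lower. After subtraction these medians were -0.48, 0.47 and -0.42, with 32 of 33 spike-ins lower. Of the 419 miRNAs, 289 were lower on Day 8 than on Day 4 after normexp and 270 after subtraction, with medians of -0.17 and -0.13.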

How the data were processed

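Mean and median foreground intensity, local background intensity and the percent of saturated pixels per spot were read from the scanner output that the authors deposited (Mapix 4.5.0, per the file headers), 1 file per array, not normalized between arrays. The deposited spot marks (score: found or not found) were used only to leave spots out as an alternative, and intensity in the second channel, deposited for the same spots without a dye, was read as a check. The deposited value table holds intensity that equalled the mean over spots of median foreground minus background for all 24 controls, with no log, centring or scaling, and medians of 73.2, 82.4, 65.8 and 81.1 on Days 2, 4, 6 and 8.

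The background was removed from mean foreground by normexp (offset 50, limma 3.58.1, R 4.3.3), fitted to all spots of an array. Values were then log2-transformed and averaged over the spots of a probe in Python 3.11.15. No scaling between arrays was applied before the comparisons. Controls and spike-ins at 300 units or more on all 4 arrays with under 50% saturated pixels, and mouse miRNAs at 300 units or more on at least 1 array, were used; medians over these sets gave the scales. With 1 array of pooled RNA per day no p-value was computed, and the number of arrays limits the precision. The averaging and scaling steps were tested on simulated log2 values with known shifts. Background correction was not part of that test. Every control was named; those with the 3 smallest and 3 largest SDs relative to the spike-ins were given with their SD under each scaling and their differences relative to the spike-ins. The members, lists and thresholds were chosen with earlier results of these data known. Alternatives changed the background correction, the spots kept, the probe sets, the summary and the source of values. Host genes are from the RefSeq gene table (GRCm38.p6), used for names only; probe names are those of the array design, partly human symbols.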

Additional observations from a re-analysis of the deposited data

Results flagged for a closer look

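Signal was present for 7 controls in the scanner's second channel, in which no dye was used, above the brightest of 7 negative control probes on each of the 4 arrays (5.93, 6.06, 8.58 and 5.92 units on Days 2, 4, 6 and 8). The highest value over the 4 arrays was 73.37 units for SNORD2, 60.15 for RNU6-1_RNU6-2, 47.85 for 5S_rRNA, 22.36 for RNU5, 14.74 for SNORD65, 13.21 for RNU1 and 11.58 for U6B. For SNORD2 this came to 0.179%, 0.166%, 0.175% and 0.158% of its signal in the dye's channel on Days 2, 4, 6 and 8, and for 5S_rRNA to 0.178%, 0.143%, 0.181% and 0.141%. The array's own Hy3 dye spots read 272, 279, 239 and 282 units in the second channel on Days 2, 4, 6 and 8. The share of miRNA or spike-in probes past the same bar was not counted, so that this signal cannot be called particular to the controls. Each day has 1 array, so that no group was large enough to look for a sample apart from the others.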

How the results depend on the processing

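Of 636 alternative values over 29 settings, 547 stayed within set limits, including every value with 1 control left out of the set. The limits were the spot error for a difference (0.104) or an SD (0.055), and 1.5 times for a count, which is not a measured error. A count of 136 miRNAs higher on Day 8 with box C/D snoRNAs only, beside 91 in the main setting, was thus within them. Another 86 values moved and 3, each with a main value beyond the spot error, changed sign. No paired analysis was possible because each day has 1 array. Medians below are log2 differences from Day 2 of the control set, counts are of probes past 0.6, and triples are Days 4, 6 and 8.

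Plain subtraction gave an unscaled median of -0.70 on Day 6. Relative to spike-ins it gave medians of -0.71, -1.04 and -0.55, an SD of 0.47, and 11 and 6 controls lower on Days 4 and 8. Relative to miRNAs it gave -0.29, -0.32 and -0.42, with 3 and 4 controls lower on Days 6 and 8 and 0 higher on Day 8. Scaled by controls, 83, 92 and 157 miRNAs were higher, and 3 lower on Day 4. No background correction gave an unscaled median of -0.695 on Day 6 and 3 controls lower on Day 8. Relative to spike-ins it gave -0.67, -0.97 and -0.49, an SD of 0.43, and 10 and 4 controls lower on Days 4 and 8. Relative to miRNAs it gave -0.30, -0.32 and -0.37, with 3 and 3 lower on Days 6 and 8 and 0 higher on Day 8; 65 miRNAs were higher on Day 4, and 1 and 7 lower on Days 4 and 6. The deposited value table gave an unscaled median of -0.69 on Day 6. Relative to spike-ins it gave -0.70, -1.03 and -0.55, an SD of 0.46, and 11 and 7 controls lower on Days 4 and 8. Relative to miRNAs it gave -0.28, -0.30 and -0.40, with 2 and 4 lower on Days 6 and 8 and 0 higher on Day 8; 80, 90 and 150 miRNAs were higher. Whether these shifts came from the unequal amounts that normexp added per array was not tested.

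With snRNAs and 5S only, an alternative chosen after the data were seen, the unscaled medians were -0.41, -0.63 and -0.31 with an SD of 0.31. Relative to spike-ins they were -0.665, -0.615 and -0.14, and relative to miRNAs -0.32, 0.013 and -0.056, a change of sign on Day 6; 70 miRNAs were higher and 3 lower on Day 4, and 22 lower on Day 6. With box C/D snoRNAs only, the Day 8 medians were -0.65 unscaled, -0.48 relative to spike-ins and -0.40 relative to miRNAs. The mean of the set gave -0.20 relative to miRNAs on Day 4.

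With all miRNAs, dim ones included, the medians relative to miRNAs were 0.36, 0.18 and 0.36, above 0 on all 3 days and so turned in sign. The controls lower were 0 on Days 4 and 8, 1 and 3 were higher on Days 6 and 8, and 379, 141 and 382 miRNAs were lower. Dim probes are those that the unequal correction moves most. With miRNAs at 300 units on all arrays, 2 controls were lower and 0 higher relative to them on Day 8, and 1, 5 and 12 miRNAs were lower. With all spike-ins, the medians relative to them were -0.27 and -0.63 on Days 4 and 6, the SD was 0.30, and 1 control was lower and 1 higher on Day 8. The median foreground and the median of spots also gave 1 control higher relative to spike-ins on Day 8.

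The arrays carry 1 pooled sample a day, so that none of these ranges covers the spread between cultures, and the brightest negative control reached 139 units. Counts of controls were not compared between sets of unequal size.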
